A study of Mus musculus with 6 samples.

Results

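Regulatory T cells of the mouse lung were defined here as T cells that carried at least 1 count of Foxp3 together with at least 1 of Il2ra, Ctla4, Ikzf2, Tnfrsf4 and Tnfrsf18, and that lacked the markers of other lineages listed below. They numbered 217 of 24474 cells with at least 500 expressed genes, 120 from animals given an isotype control antibody and 97 from animals given a PD-1 agonist. The cells were live CD45+ leukocytes sorted from the lungs of mice aged 6 to 8 weeks. All the mice, controls included, carried a humanized PD-1, and the labels give no other strain. The sources used here do not say which part of mouse Pdcd1 was replaced, how reads of human sequence were counted, or the dose and timing of the antibodies. The series title places the agonist in neutrophilic asthma. Cells of 3 mice per treatment were mixed by cell hashing, an antibody tag for each mouse, and no map from cell to mouse was used here. Any pair of tables from the same treatment had 2373 to 2736 cell barcodes in common, 35.87 to 42.5% of the smaller table, whereas tables from different treatments had 3 to 13 in common. Each treatment was therefore handled as 1 pool, each barcode was used once, and no test was made between treatments.

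Regulatory T cells restrain other immune cells. The transcription factor Foxp3 maintains their identity, they take up IL-2 through the high-affinity receptor that Il2ra completes, and Ctla4 lowers the costimulatory ligands on antigen-presenting cells. In the lung and other barrier tissues a part of them carries the IL-33 receptor (Il1rl1), Klrg1 and the growth factor amphiregulin (Areg), which is known for its part in tissue repair. PD-1 is an inhibitory receptor that T cells acquire when activated.

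The members were chosen by the counts of the genes of this rule in these same cells, so those genes are given as a description only. A cell had to have a count of Cd3d, Cd3e or Cd3g, no count of Cd8b1, Trdc, Ncr1, Siglech or Cxcr2, and fewer than 2 counts of Cd79a and of C1qa. Of 342 T cells with Foxp3, 122 were left out by such an exclusion, most often through Cd8b1 (44 cells) and C1qa (38 cells), and 3 of the remaining 220 had none of the 5 further markers. All 5 were detected in 107 members, 4 in 60, 3 in 27, 2 in 17 and 1 in 6. Foxp3 rested on a single count in 86 members, on 2 counts in 55 and on 3 or more in 76. The lowest number of expressed genes in a member was 514, and 1 cell just outside the limit had 494.

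Markers that the rule did not use were those of alpha-beta T cells in most members. Trac, the constant part of the T cell receptor alpha chain, was detected in 77.5% and 75.26% of members of the isotype and agonist pools, and Cd4 in 35% (95% exact interval 26.52 to 44.24) and 43.3% (33.27 to 53.75). Cd8a was detected in 2 cells of each pool. The CD8 T cell list of 4 genes summed to 129 and 217 counts, 127 and 201 of them from Ly6c2. Gzmk was at 0 in both pools and Eomes in the isotype pool. Ly6c2 is also in the macrophage and monocyte list, so this sum does not measure CD8 T cells. Natural killer cell markers were not near 0, with 568 and 653 counts over 7 genes. The 291 and 256 conventional CD4 T cells defined below had 816 and 630 counts of them. Without the members holding 4 or more B cell or myeloid markers, described below, the CD8 list summed to 27 and 15 counts. The natural killer list then summed to 167 and 166. Defining markers of gamma-delta T cells summed to 1 and 2 counts over 6 genes. Red cell and platelet markers summed to 0 counts over 4 genes. They were at only 0 and 2 counts in conventional CD4 T cells too, so this 0 does not set the members apart. In both pools 3 of the 6 type 2 innate lymphoid genes, Il13, Il5 and Calca, were at 0. That list summed to 335 and 294 counts, nearly all from Il1rl1 (194 and 153) and Gata3 (135 and 126), which tissue regulatory T cells are known to express too, with Arg1 at 6 and 15. Foxp3 was detected in 1 of 731 and 0 of 1151 B cells (the latter allows a share of up to 0.32%) and in 4 of 1926 and 3 of 2308 neutrophils, at median depths of 2262, 2061, 1976 and 1738 counts per cell. Both classes were limited to cells with no CD3 count, and the neutrophils to cells with no Cd79a count. These shares therefore do not bound stray Foxp3 counts in cells with CD3.

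A group of the members also carried transcripts of B cells and myeloid cells. Of 27 B cell, macrophage, dendritic and neutrophil markers, 4 or more were detected in 17 of 120 members of the isotype pool (14.17%, exact interval 8.474 to 21.71) and in 27 of 97 of the agonist pool (27.84%, 19.21 to 37.86). These cells were deeper, with median totals of 7439 and 9472 counts against 2822 and 3260 in the other members. At least 4 of the markers were found in 22 of 291 and 29 of 256 conventional CD4 T cells. Scrublet, which scores likely droplets of 2 cells, called 26 members, 22 of them among the 44 with 4 or more markers. Macrophage and monocyte markers summed to 829 and 1216 counts in the members and to 44 and 42 without the 44 cells. All of these markers but Ly6c2 are among the 27 by which the cells were picked, so a fall was built in. Values without these cells stand beside several results below; this limit of 4 markers was chosen after the data had been seen.

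**Figure D1:**
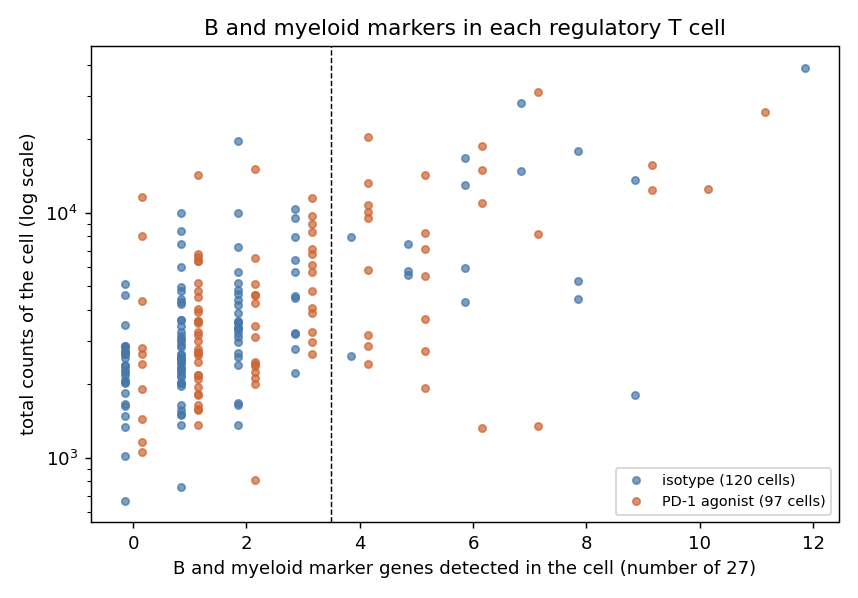
Each point is 1 regulatory T cell; the x axis gives how many of 27 B cell and myeloid marker genes were detected in it and the y axis its total counts on a log scale, coloured by pool. The cells right of the dashed line, 17 of the isotype pool and 27 of the agonist pool, hold 4 or more markers. Their median totals, 7439 and 9472 counts, lie above the 2822 and 3260 of the other members, but the totals of single cells overlap widely.

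The median member had 3029 counts and 1550 genes in the isotype pool and 3892 counts and 1838 genes in the agonist pool. Summed counts were 559135 and 572429. The 6 tables held 22202875 to 30608477 counts each. Of the members, 38, 65 and 17 were taken from the 3 isotype tables and 48, 27 and 22 from the 3 agonist tables, which are draws from 1 pool and not separate mice. All intervals below are exact 95% intervals that cover counting error only.

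Regulatory T cells were a small part of the T cells in both pools. They made up 3.586% (2.982 to 4.273) of 3346 T cells in the isotype pool and 3.163% (2.572 to 3.845) of 3067 in the agonist pool, and the ratio of agonist over isotype was 0.8819 (0.6677 to 1.162). Among all cells the shares were 1.019% and 0.7642%, a ratio of 0.7503 (0.5681 to 0.9887). Among T cells with a Cd4 count they were 6.699% and 8.519%, a ratio of 1.272 (0.8092 to 1.999). That opposite direction rested on 42 cells in each pool and did not hold throughout: the shares were 6.699% and 6.562% without the first agonist table, 7.585% and 7.569% among cells with at most 4000 expressed genes, and 5.085% and 3.571% after each cell was thinned to 1000 counts. These intervals hold 1 for the shares of T cells and of CD4 T cells, and the animals' own spread is not known. After the same thinning, 2.172% and 1.847% of T cells still met the rule.

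Against conventional CD4 T cells, regulatory T cells carried higher levels of suppressive and tissue genes and lower levels of genes of resting T cells. Conventional cells were T cells with Cd4 that passed the same exclusions and had no count of Foxp3, Il2ra or Ikzf2 (291 and 256 cells, median 2557 and 2596 counts). Counts were summed per class and pool, and edgeR's quasi-likelihood test with the pool as a block compared the classes within pools, with Benjamini-Hochberg adjustment over 8689 genes with at least 30 counts. It called 507 genes higher (5.83% of those tested) and 518 lower (5.96%) in regulatory T cells at an adjusted p under 0.05. With only Foxp3 required to be absent (406 and 326 conventional cells), 387 were higher and 283 lower. Leaving out cells with Il2ra or Ikzf2 may itself favour resting cells in the conventional class. Part of the contrast with resting genes may thus follow from the definition, and how much was not tested. The 4 sums leave 1 residual degree of freedom, and DESeq2 called 112 higher and 184 lower, all of them also called by edgeR. DESeq2 gave no adjusted p to some genes named by rank below and so did not call them. These were Lrrc32, Itgb8, Klrg1, Ccr3, Ncmap, Neb, Itgae, Tgfbr3, Apol7b, Atp1b1, Dapl1, Tdrp, Vipr1, Hs3st3b1 and St8sia6.

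Surface molecules and receptors were among the largest differences. Lrrc32, which holds latent TGF-beta at the cell surface, stood at 119.4 and 84.48 CPM (counts relative to the scaled total of each sum) in regulatory T cells of the isotype and agonist pools and at 1.051 and 0 in conventional cells (log2 difference 7.12, adjusted p = 6.642e-07). It was detected in 41 of 120 and 33 of 97 members against 1 of 291 and 0 of 256 conventional cells, so most cells of either class had no count and only the summed levels lay apart. Tnfrsf9 (4-1BB), a costimulatory receptor of activated T cells, stood at 374.5 and 260.5 against 11.56 and 10.08 CPM (log2 4.86, adjusted p = 1.151e-08). Il1rl1, the receptor of the alarmin IL-33, was at 351 and 269.3 against 19.97 and 13.86 (log2 4.18, adjusted p = 1.944e-08). In each of these genes both regulatory sums lay far above both conventional sums. Itgb8, the integrin chain that frees active TGF-beta, had 16 and 14 counts in regulatory T cells and none in conventional cells. This was at least 15.57-fold higher against a floor of 3 counts over both pools. Its total only just met the minimum count for testing, and did so through regulatory T cells alone. Klrg1, an inhibitory receptor of tissue and effector cells, differed by 3.95 (adjusted p = 1.881e-06), and Itgae, the integrin that binds E-cadherin, by 3.51 (adjusted p = 1.538e-05). Ccr3, a receptor of eotaxins, had 17 and 18 counts against 0 and 1. The other genes named by rank were the integrin chain Itgav at 3.05 (adjusted p = 2.608e-07), Ncmap and Neb. Ncmap had 18 and 18 counts against 1 and 1. Ccr3 and Ncmap also met the minimum count for testing mainly through regulatory T cells. The places of Itgb8, Ccr3 and Ncmap in the ranking thus rest on few counts.

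Secreted effectors were also higher. Areg stood at 383.6 and 293.9 CPM against 16.82 and 10.08 (log2 4.63, adjusted p = 1.151e-08). Gzmb, a cytotoxic protease, stood at 700.2 and 572 against 25.22 and 44.11 (log2 4.22, adjusted p = 1.151e-08), while perforin (Prf1), the pore protein that acts with it, was lower, with 0 and 4 counts against 23 and 18 (log2 -2.68, adjusted p = 0.02275). Il10, the anti-inflammatory cytokine, had 29 and 13 counts in 12 and 7 members against 0 and 9 counts in 0 and 1 conventional cells (log2 2.80, adjusted p = 0.02131), and against conventional cells defined by the lack of Foxp3 alone it was at -0.1923 (adjusted p = 0.8285). Ebi3, a subunit of IL-35 and IL-27, differed by 2.55 (adjusted p = 0.007387). Of 15 tested genes in the list of suppressive mediators, 13 were higher and 1 lower, with a median log2 difference of 1.837 against -0.008914 over all genes tested. Tgfb1 itself did not pass (log2 0.33, adjusted p = 0.2253). Penk, the enkephalin precursor, had 9 and 49 counts against 1 and 1, and 34 of the 49 came from 1 cell.

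**Figure D2:**
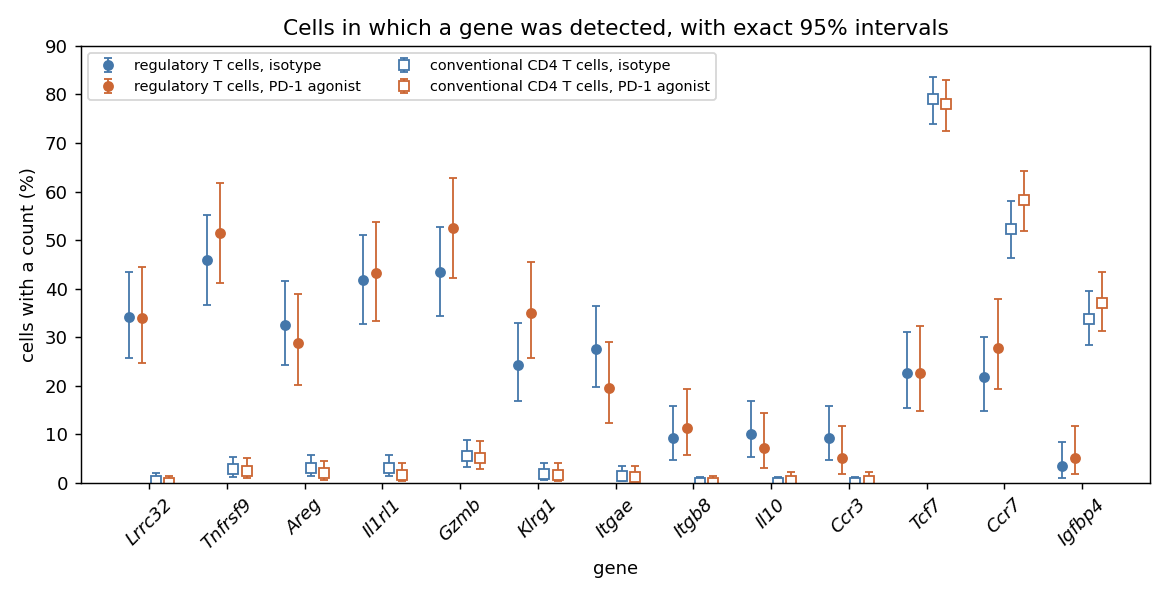
The y axis gives the percent of cells with at least 1 count of each gene on the x axis, for regulatory T cells (filled circles) and conventional CD4 T cells (open squares) of the isotype and PD-1 agonist pools, with exact 95% intervals. Lrrc32 was detected in 34.17% and 34.02% of regulatory T cells and in 0.3436% and 0% of conventional cells; Tcf7 in 22.5% and 22.68% against 79.04% and 78.12%.

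Shares of cells with a count followed the summed levels at equal depth too. After thinning each cell to 1000 counts, Il1rl1 was detected in 23.93% and 27.08% of members and in 1.73% and 0.7968% of conventional cells. Tcf7, the transcription factor TCF-1 of naive and memory T cells, was detected in 9.402% and 12.5% of thinned members against 48.79% and 48.21%. The tissue markers overlapped in part: of 50 and 42 members with Il1rl1, 24 and 18 also had Areg, and 19 and 21 had Klrg1.

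The promoters of 4 of the genes called higher are shown because they differ in which short motif letters they hold; they were chosen after their values and matches had been seen. The 250 bases upstream of the first start listed by RefSeq (GRCm38.p6) were searched on both strands for the forkhead letters TGTTTAC, the AP-1 letters TGANTCA, the NF-kappaB letters (GGGA, any base, TTTCC) and the RUNX letters TGTGGTT, and matches are in capitals. No match overlapped another.
Gzmb, chr14:56262335-56262584, minus strand: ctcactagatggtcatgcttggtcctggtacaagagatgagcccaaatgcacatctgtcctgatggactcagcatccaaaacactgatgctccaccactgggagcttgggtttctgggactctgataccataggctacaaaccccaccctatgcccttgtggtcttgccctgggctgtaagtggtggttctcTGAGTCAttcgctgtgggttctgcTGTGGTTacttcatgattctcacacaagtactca
Ccr3, chr9:124021721-124021970, plus strand: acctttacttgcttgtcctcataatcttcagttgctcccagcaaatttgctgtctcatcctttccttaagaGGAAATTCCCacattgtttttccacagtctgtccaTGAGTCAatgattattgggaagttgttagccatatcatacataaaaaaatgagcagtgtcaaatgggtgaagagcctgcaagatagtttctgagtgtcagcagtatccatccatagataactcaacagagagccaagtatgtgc
Prdm1, chr10:44458749-44458998, minus strand: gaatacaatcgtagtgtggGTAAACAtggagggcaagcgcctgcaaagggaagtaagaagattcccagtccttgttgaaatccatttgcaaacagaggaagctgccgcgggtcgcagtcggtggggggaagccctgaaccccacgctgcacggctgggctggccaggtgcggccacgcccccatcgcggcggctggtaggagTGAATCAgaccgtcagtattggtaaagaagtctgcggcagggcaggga
Nfkbia, chr12:55492648-55492897, minus strand: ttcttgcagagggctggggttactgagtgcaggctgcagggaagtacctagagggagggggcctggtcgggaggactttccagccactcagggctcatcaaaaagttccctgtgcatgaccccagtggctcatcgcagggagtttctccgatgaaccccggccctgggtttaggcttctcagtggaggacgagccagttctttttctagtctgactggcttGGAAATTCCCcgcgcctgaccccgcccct
Gzmb held AP-1 letters from base 58 and RUNX letters from base 34 upstream of the start. Ccr3 held NF-kappaB letters from base 179 and AP-1 letters from base 144. Prdm1, which encodes the effector regulator Blimp-1, held forkhead letters from base 231 and AP-1 letters from base 48, and Nfkbia, the inhibitor of NF-kappaB that NF-kappaB itself induces, held NF-kappaB letters from base 29. Over 27025 promoters of the same length, the forkhead letters occurred in 3.093%, the AP-1 letters in 6.868%, the NF-kappaB letters in 0.3367% and the RUNX letters in 4.455%. No share was computed over the called genes, because only 659 of 1025 (64.29%) had a promoter in the table. Prdm1 differed by 1.92 (adjusted p = 0.0001579) and Nfkbia by 0.90 (adjusted p = 1.908e-05) between the classes.

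The core program of regulatory T cells outside the rule moved in 1 direction. Of 23 tested genes of that list 19 were higher and none lower, with a median log2 difference of 1.246. They included Ikzf4 (Eos), a partner of Foxp3, at 1.81 (adjusted p = 0.0001987), the receptor Gpr83 at 3.40 (adjusted p = 0.0006057), Capg, a cap of actin filaments, at 1.76 (adjusted p = 2.902e-06), and Izumo1r (folate receptor 4) at 1.59 (adjusted p = 0.0004998). Nrp1, Rgs1, Icos and Gbp4 did not pass, at 0.49, 0.24, 0.33 and 0.30. Several list members are known to be shared with activated T cells, so this list is not specific to regulatory cells.

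Of 28 tested genes of the tissue effector list, 16 were higher and 2 lower. S100a6, a calcium-binding protein of effector and memory cells, stood at 3618 and 3522 CPM against 1419 and 1292 (log2 1.40, adjusted p = 1.151e-08). Nfil3, a transcription factor of effector regulatory cells, differed by 1.69 (adjusted p = 0.0003894), Gata3, the type 2 regulator, by 0.94 (adjusted p = 0.002188), and the chemokine receptor Ccr2 by 1.00 (adjusted p = 0.0002032). Cxcr6, a receptor of tissue-resident T cells, went the other way at -1.58 (adjusted p = 0.0006238), as did the integrin chain Itgb1 at -0.69 (adjusted p = 0.005982). Batf and Rora, both linked to tissue regulatory cells, did not pass at 0.62 and 0.32.

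Genes of central and resting T cells were lower in 15 of 16 cases and higher in none, with a median of -1.445. Tcf7 stood at 77.8 and 116.2 CPM against 656.9 and 766.2 (log2 -2.88, adjusted p = 1.512e-08), and the chromatin organiser Satb1 at 300.3 and 249.9 against 1113 and 1254 (log2 -2.10, adjusted p = 3.689e-08). Igfbp4, an insulin-like growth factor binding protein high in naive T cells, was at 16.28 and 17.6 against 239.6 and 278.5 (log2 -3.92, adjusted p = 9.883e-08). Lef1, Bach2 and Ccr7 were lower by a log2 difference of -2.10, -1.79 and -1.55. The other genes named by rank among the lower ones were Tgfbr3, Apol7b, Atp1b1, Dapl1, Tdrp, Vipr1, Hs3st3b1, St8sia6, Pde3b and Nsg2, at -2.81 to -4.80.

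**Figure D3:**
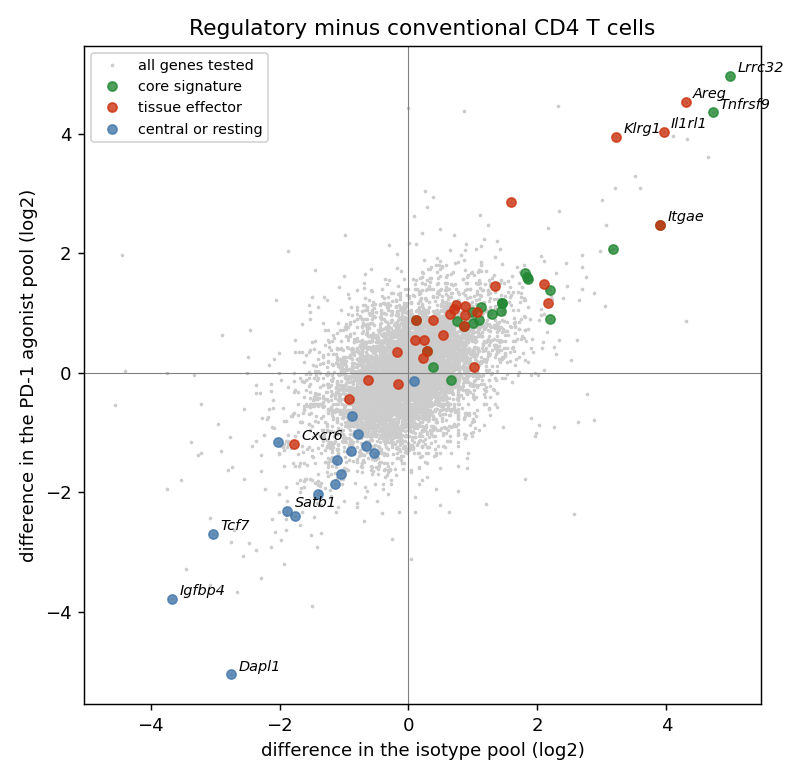
Each point is a gene; the x axis gives the log2 difference of regulatory minus conventional CD4 T cells in the isotype pool and the y axis the same in the agonist pool, with a prior count of 2. Genes of the core signature and tissue effector lists lie mostly in the upper right, Tcf7 and Igfbp4 in the lower left in both pools, and Cxcr6 lies with the central or resting genes.

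Signalling genes were split. In the IL-2 receptor and STAT5 list (16 genes, 4 higher and 5 lower), the receptor chain Il2rb (1.15) and the STAT5 targets Socs2 (1.82), Cish (1.18) and Pim1 (0.77) were higher, with adjusted p of 2.888e-05, 0.000201, 8.99e-05 and 8.99e-05. The IL-7 receptor chain Il7r and the survival factor Bcl2 were lower at -1.29 and -1.51. Among T cell receptor signalling genes 1 of 15 was higher, Cd2 at 1.19, and 4 were lower. Of 27 activation and NF-kappaB genes 5 were higher and none lower, and among TNF receptor and costimulation genes Tnfrsf9, Tnfrsf1b (1.32) and Traf1 (0.98) were higher and Cd28 (-0.70) and Cd226 lower, of 13 tested. Of 21 migration receptors 5 were higher and 4 lower, of 30 transcription regulators 5 and 6, of 22 metabolic genes 3 and 1, and of 16 helper-type genes 5 and 2.

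In the PD-1 axis 7 of 15 genes passed the test, the receptor itself not among them. Pdcd1 (PD-1) had 20 and 29 counts in regulatory T cells and 30 and 12 in conventional cells (log2 0.89, adjusted p = 0.1595). With all cells used, its counts were thus not distinguishable between the classes. It was higher without the cells with B or myeloid markers (log2 1.54, adjusted p = 0.001405). The ligands Cd274 (PD-L1) and Pdcd1lg2 (PD-L2) were higher at 1.07 and 1.10 (adjusted p = 0.00257 and 0.03818), as were the inhibitory receptors Havcr2 (TIM-3) at 1.64 and Klrg1. Btla, Cd96 and Pik3ip1 were lower at -0.95, -1.46 and -2.17. Over the list, 4 of 15 tested were higher and 3 lower, with a median of -0.001567.

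Genes that interferon induces and genes of the cell cycle were higher in part. Of 28 interferon-response genes 14 were higher and none lower, among them the GTPases Iigp1 (1.498, adjusted p = 0.0004491) and Gbp3 (1.24, adjusted p = 0.00959) and Ifi27l2a at 4011 and 3497 CPM against 1687 and 1705. Of 28 cell cycle genes 8 were higher and none lower, among them Ube2c, which targets mitotic proteins for destruction, at 1.51 (adjusted p = 0.0009323) and the proliferation marker Mki67 at 1.05 (adjusted p = 0.007393). Without the cells with B or myeloid markers 17 interferon genes were higher and 1 lower, and 4 cell cycle genes were higher; Mki67 was then at 0.63 (adjusted p = 0.094).

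Cytokines of effector T cells were mostly lower or rested on few cells. Cd40lg, the helper signal to B cells, was at -2.09 (adjusted p = 0.0005338), Tnfsf8 at -1.61 (adjusted p = 0.0009929) and the chemokine Ccl5 at -1.02 (adjusted p = 0.0002559). Il17a, Ccl3 and Ccl4 passed the test at 1.24, 1.95 and 2.06, and 106 of 111 Il17a counts, 126 of 156 Ccl3 counts and 164 of 217 Ccl4 counts of the agonist pool came from 1 cell each. Likewise 129 of 134 Ifng counts of the isotype pool lay in 1 cell. Il13 had 33 counts in conventional cells of the isotype pool and 0 in the other 3 sums.

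**Figure D4:**
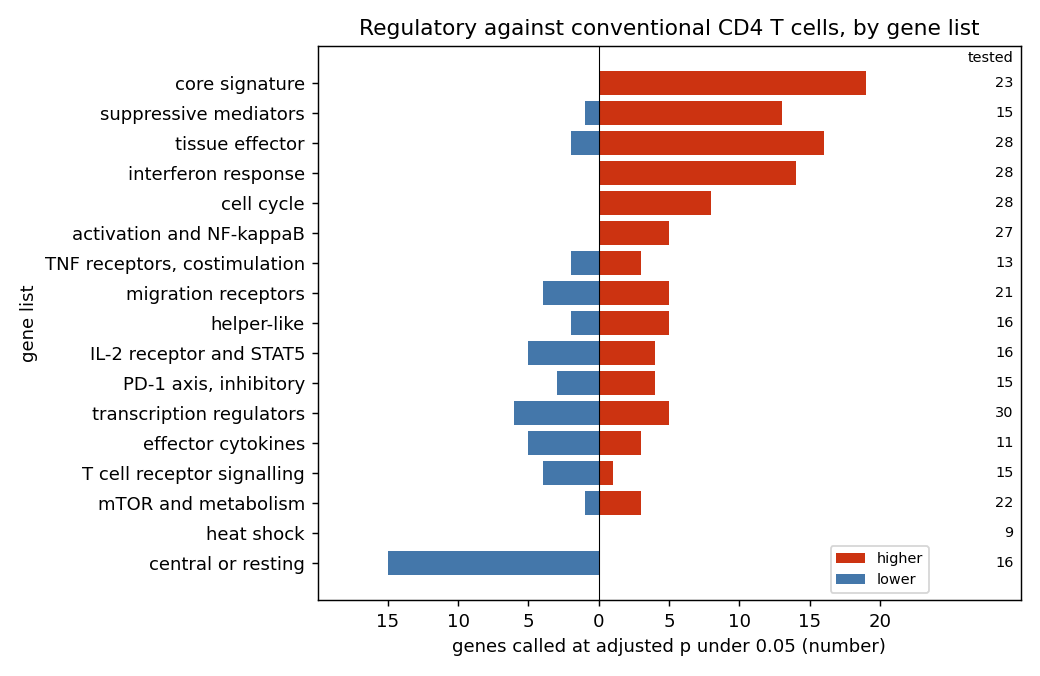
Bars give the number of genes in each list called higher (right, red) or lower (left, blue) in regulatory than in conventional CD4 T cells at an adjusted p under 0.05, and the number at the right the genes tested. The suppressive mediators had 13 of 15 higher and the central or resting list 15 of 16 lower.

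The calls against conventional cells mostly remained when the 44 members with B or myeloid markers and the matching conventional cells were left out: 377 of the 507 higher and 425 of the 518 lower genes were called again. Areg was then at 5.81, Tnfrsf9 at 5.21, Il1rl1 at 4.30 and Tcf7 at -2.71. Of 7 neutrophil markers, S100a8, S100a9 and Retnlg were called higher with all cells. Without the cells named, S100a8 was at -0.09 (adjusted p = 0.9257) and S100a9 at -0.39 (adjusted p = 0.5459). Both genes are among the markers by which those cells were picked, so a fall was built in. Library totals in place of edgeR's scaling gave 858 higher and 581 lower, a larger share of higher calls than the 507 and 518 above.

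Between treatments the values are a description of 2 pools of cells, with no test, and fewer cells and less RNA per cell cannot be told apart in the sums. Of 5670 genes with at least 30 counts in the members, 670 (11.8%) were past 1.5-fold higher in the agonist pool and 501 (8.84%) past 1.5-fold lower, with a median log2 ratio of -0.004482. Of the genes past 1.5-fold, 7.502% had at least 25% of the counts of the higher pool in 1 cell. These percentages are the background for the counts that follow. Marker lists of other cells were summed per pool too. B cell markers summed to 1466 and 1656 counts (8 genes, Fcer2a at 0 in the agonist pool). Macrophage and monocyte markers summed to 829 and 1216 (8 genes, Marco at 0 in the agonist pool). Neutrophil markers summed to 669 and 287 (7 genes, none at 0) and dendritic markers to 255 and 356 (8 genes, Xcr1 and Fscn1 at 0 in the isotype pool). These lists include Cd74, Ly6c2, Itgax and Bst2, which T cells also make and which are not among the 27 markers. Bst2 was detected in 55% and 55.67% of members, so the sums are not all transcripts of other cells. The part of other cells in single ratios is shown where a value without the 44 cells is given. The rule's own genes were at log2 ratios of -0.53 (Foxp3), -0.46 (Ikzf2), -0.38 (Tnfrsf4), -0.32 (Il2ra), -0.16 (Tnfrsf18) and 0.07 (Ctla4).

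Cell cycle genes lay far above that background in the agonist pool. Of 28 genes, 18 were past 1.5-fold higher in the agonist pool, none lower, and 27 of 28 had a ratio above 0, with a median of 0.7712. Mki67 had 80 counts in 19 members of the isotype pool and 157 counts in 24 of the agonist pool (log2 0.97, interval 0.57 to 1.37). Tubb5, a tubulin, had 258 and 460 counts (log2 0.83, 0.61 to 1.06), Cenpf, a kinetochore protein, 38 and 85 (log2 1.16, 0.59 to 1.75), and Ube2c 76 and 142 (log2 0.90, 0.49 to 1.32). Replication genes lay closer to no difference, with Pcna at 0.04 (-0.32 to 0.41) and Mcm5 at -0.21 (-0.93 to 0.50). The same list had a median of -0.2256 in conventional CD4 T cells, and 1.053 in regulatory T cells without those with B or myeloid markers.

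Most of these counts came from few cells. At least 10 of the 28 cycle genes were detected in 13 of 120 members of the isotype pool (10.83%, 5.896 to 17.81) and in 21 of 97 of the agonist pool (21.65%, 13.93 to 31.17), intervals that overlap. Those cells held 1479 of 1885 and 2560 of 2969 counts of the list. The limit of 10 genes was chosen after the data had been seen, and the part of the deeper cells of the agonist pool in this difference was not tested.

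Interferon-response genes were on the other side. Of 28 genes none was past 1.5-fold higher, 8 were past 1.5-fold lower and 27 of 28 had a ratio below 0, with a median of -0.4378 against 0.02576 in conventional CD4 T cells. Isg15, a ubiquitin-like interferon product, had 150 and 72 counts (log2 -1.06, -1.49 to -0.65) in 42 and 31 members. Iigp1 had 181 and 109 (log2 -0.74, -1.09 to -0.39), Gbp3 76 and 45 (log2 -0.76, -1.33 to -0.21), and Ifit1 58 and 31 (log2 -0.91, -1.59 to -0.26). In conventional CD4 T cells Isg15 stood at 0.67 (0.23 to 1.11) and Ifit1 at 0.85 (0.26 to 1.45), the opposite side of 0. B2m and Psmb8, which belong to antigen presentation, were near 0 at -0.23 and 0.0047. The median was -0.4109 without the cells with B or myeloid markers.

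**Figure D5:**
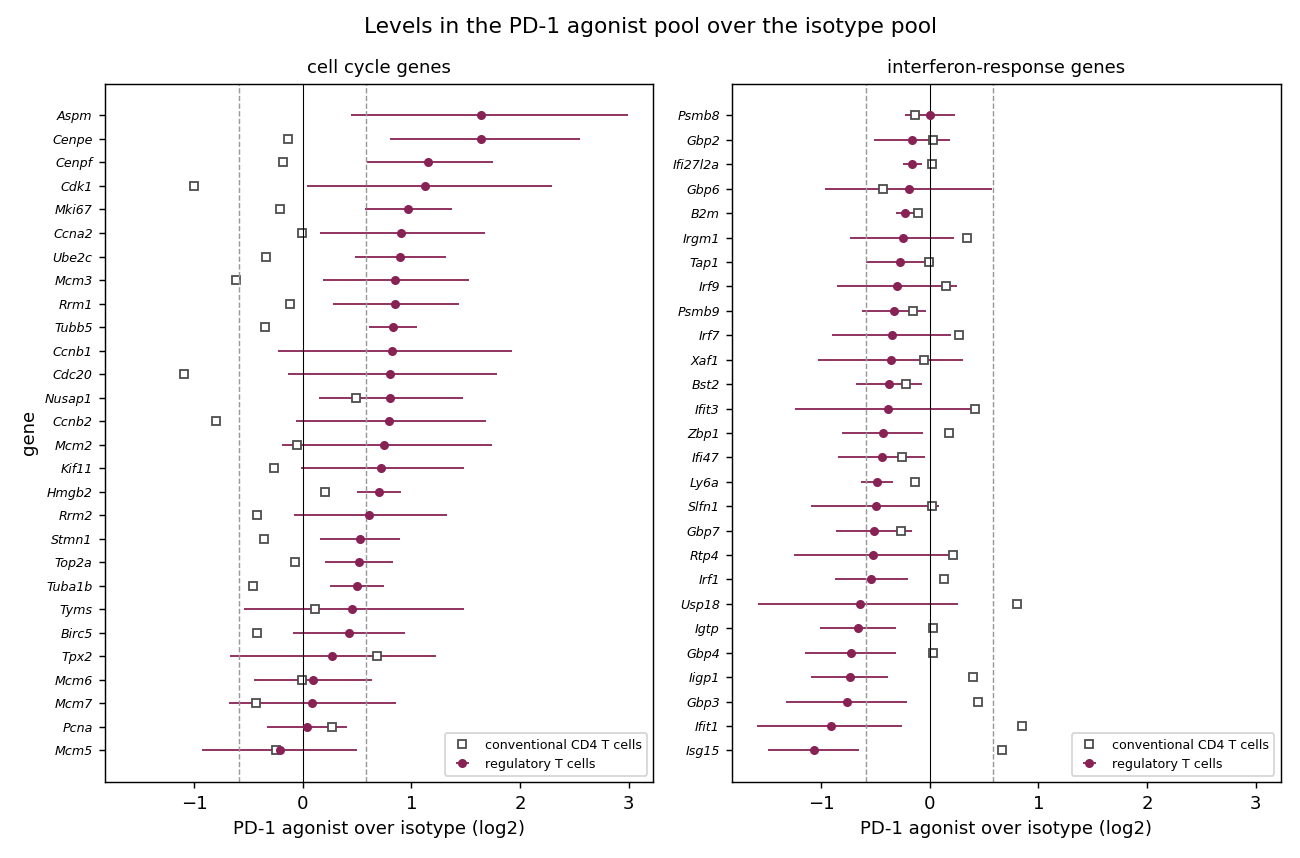
The x axes give the log2 ratio of the PD-1 agonist over the isotype pool for 28 cell cycle genes (left) and 27 interferon-response genes (right), with exact 95% intervals for regulatory T cells (filled circles) and the value in conventional CD4 T cells with at least 30 counts (open squares); dashed lines mark 1.5-fold. In regulatory T cells 27 of the 28 cell cycle genes lie above 0 and 26 of the 27 interferon-response genes below it.

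Genes of regulatory identity and function lay near or a little under equality. The core signature had 0 of 23 past 1.5-fold higher and 3 lower (median -0.2061), suppressive mediators 1 of 13 higher and 2 lower (median -0.2564), and the tissue effector list 0 of 28 higher and 3 lower (median -0.1053). Areg had 212 and 167 counts (log2 -0.35, -0.65 to -0.05), Il1rl1 194 and 153 (log2 -0.35, -0.66 to -0.03), Gzmb 387 and 325 (log2 -0.26, -0.47 to -0.04) and Lrrc32 66 and 48 (log2 -0.46, -1.03 to 0.09). Il10 had 29 and 13 counts in 12 and 7 cells (log2 -1.16, -2.23 to -0.17). The tissue genes past 1.5-fold lower were Batf with 79 and 42 counts, Prdm1 with 80 and 49, and Cxcr3, a receptor of type 1 chemokines, with 54 and 30. Klrg1 was at 0.47 (-0.04 to 0.9954).

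In the PD-1 axis Pdcd1 had 20 counts in 13 members of the isotype pool and 29 counts in 7 members of the agonist pool, 16 of them in 1 cell (log2 0.53, -0.34 to 1.43; -0.39 without the top cell of each pool, and -0.3635 without the first agonist table). Cd274 was at 0.23 (-0.22 to 0.67) and the phosphatase Ptpn11 (SHP-2), which PD-1 recruits, at 0.71 (-0.31 to 1.78; -0.01494 without the second isotype table). Havcr2 was at -0.72 (-1.45 to -0.01). The list had 2 of 12 past 1.5-fold higher, Ptpn11 and Cd200 (Cd200 at -0.35 without the cells with B or myeloid markers, from few counts), and 1 lower, and 10 of 12 ratios lay above 0, with a median of 0.3464. The Pdcd1 counts of the pools were thus not distinguishable. In mice with a humanized PD-1 it is also not known here how far these counts follow the level of PD-1.

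The 10 genes in each direction whose interval lay farthest from equality were mixed in kind. Higher in the agonist pool were Tbc1d4, which regulates glucose transporter traffic (17 and 102 counts, log2 2.58, interval 1.83 to 3.41), Actn1, an actin crosslinker (12 and 46), Sumo2 (8 and 35), Bri3, Dhrs3, Hmgn2, Jaml, the mitotic motor Cenpe (16 and 50), Smc5, which maintains chromosome structure (10 and 36), and Ccr7 (68 and 157). Without the cells with B or myeloid markers Tbc1d4 was at 0.23, Ccr7 at 0.18 and Jaml at -0.99, whereas Actn1 (1.84), Sumo2 (2.07), Dhrs3 (2.74), Hmgn2 (2.26), Cenpe (2.05) and Smc5 (2.07) were as far apart. Lower were Mir682 (329 and 15 counts), Nkg7, a cytotoxic granule protein (104 and 26, log2 -2.004, -2.68 to -1.37), Mir703, Flt1, Rrad, Isg15, Rnf157, Oaz1, Nisch and Rnaset2b. Mir682 and Sumo2 had nearly the same ratio in conventional cells (-4.44 and 2.42), and Bri3, Hmgn2, Mir703, Oaz1, Rnaset2b, Nkg7 (-0.57, -0.91 to -0.24), Rrad (-1.08, -2.13 to -0.11), Ccr7 (0.29, 0.11 to 0.48) and Tbc1d4 (0.41, 0.01 to 0.82) lay on the same side of 0 there, with intervals clear of it. The difference between the classes was not tested for these genes.

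Other lists held few genes past 1.5-fold. Some lists had a share above the background in 1 direction and under it in the other. In the higher direction these were metabolic genes (4 of 17 higher and 1 lower) and central and resting genes (2 of 14 higher and 1 lower). In the lower direction they were transcription regulators (3 of 27 higher and 5 lower) and helper-type genes (1 of 12 higher and 3 lower). Migration receptors (1 of 20 higher and 3 lower), T cell receptor signalling genes (0 of 16 higher and 2 lower) and heat shock genes (0 of 9 higher and 2 lower) did likewise. A few genes make each difference from the background, and no list was tested. IL-2 and STAT5 genes had 1 of 16 higher and none lower, activation and NF-kappaB genes 2 of 24 higher and 1 lower, and TNF receptor and costimulation genes 0 of 12 higher and 1 lower. In the effector cytokine list 4 of 6 were past 1.5-fold higher, but as given above most counts of Il17a, Ccl3 and Ccl4 in the agonist pool came from 1 cell each; the fourth, Ccl5, had 83 and 130 counts (log2 0.64, 0.23 to 1.06). Its ratio moved both ways with the cells used, to -0.2806 among members with 2 or more Foxp3 counts, 1.735 among those with at most 4000 expressed genes, 1.689 without the cells with B or myeloid markers, 1.256 without the top cell of each pool, and 1.37 without the first agonist table or 1.228 without the second isotype table.

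Counts of some genes are uncertain because their sequence is shared. Of the 121 genes checked, 25 have at least 10% of the 31-base words of their longest GENCODE vM21 transcript (mm10) in other genes, and how the authors' counting treated such reads is not given in the sources used here. Among the genes above this holds for Mir682 (100%), Rnaset2b (87.3%), Apol7b (84.62%), Mir703 (50.63%), Pcna (37.97%), Sumo2 (36.73%), Hmgn2 (29.26%), Ube2c (25.08%), Oaz1 (23.72%) and Isg15 (13.09%), and for Foxp3, Tnfrsf18, Ebi3, Cd274, Cish, Pim1, Gbp4, Iigp1, Ifit1, Ifng, Atp1b1, Actn1, Bri3 and Jaml at 10.76 to 22.74%. Some genes with large differences between regulatory and conventional CD4 T cells share little. Lrrc32 (chr7:98489283-98502181) shares 0.2862%, Areg (chr5:91139599-91148432) 0%, Il1rl1 (chr1:40429570-40465415) 2.09%, Tnfrsf9 (chr4:150914562-150946102) 0.4317% and Tcf7 (chr11:52252371-52283014) 0%. All 5 are protein-coding genes.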

How the data were processed

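The libraries came from live CD45+ lung cells run on the 10x Genomics platform, per the labels. The authors deposited 6 tables of expected counts, estimated counts per gene and cell that need not be whole (98.2% of nonzero values were), with 20882 gene columns. Per the file headers, each cell also carries a total count, a number of expressed genes, and the percent of its reads from mitochondrial or from ribosomal genes, as deposited. The submitters' processing notes name Partek and mm10. No source used here names the aligner or the counting method.

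Each barcode was kept once per treatment, from the record with the highest total, with at least 500 expressed genes. Counts were summed per class and pool and rounded. edgeR 4.0.16 (R 4.3.3) fitted quasi-likelihood models on 4 sums with the pool as a block, on genes with at least 30 counts, with Benjamini-Hochberg adjustment and TMM scaling; DESeq2 1.42.0 was an alternative. The p-values measure the spread between 2 pools only. Ratios of agonist over isotype are of summed counts over TMM-scaled totals, with exact conditional intervals at 95%; a gene was called past 1.5-fold. CPM values use the same totals. Genes of the rule and of a class definition were not tested in that comparison. Likely doublets (Scrublet, scanpy 1.11.5, threshold 0.25 on the score at an expected rate of 0.1) were kept, and removing them was an alternative.

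The cells and gene lists were chosen with earlier results of these data known. The named genes are members of these lists, 12 in each direction against conventional cells (adjusted p under 0.05, the same sign in both pools, largest smaller within-pool difference), and 10 in each direction between treatments (interval farthest from equality, no cell with 25% or more of the higher pool's counts), without ribosomal, mitochondrial, histone, immunoglobulin, receptor-segment, pseudogene and unnamed genes. In simulated counts for the comparison with conventional cells (8698 genes, dispersion 0.05), edgeR recovered 79.12% of 91 genes changed by 2 and 15.31% of 98 changed by 1 on the log2 scale, and called 7 unchanged genes. The dispersion was set and not estimated from the data, and no counts were piled in single cells. The simulation therefore does not give the error rate of the real calls. The labels' 3 against 3 samples were not used as replicates because their barcodes are shared. No per-sample column was left out. Some genes, and 2 planned comparisons that need them, are not reported here.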

Additional observations from a re-analysis of the deposited data

Results flagged for a closer look

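For 5 named genes the ratio of the agonist over the isotype pool lay on opposite sides of 0 in regulatory T cells and in conventional CD4 T cells, with neither interval holding 0. The difference was not tested, since each treatment is 1 pool. Isg15 was at -1.063 in regulatory T cells (150 and 72 counts) and at 0.67 in conventional cells (78 and 103 counts). Ifit1 was at -0.9083 and 0.85, the other interferon-induced gene of the 5. Tubb5, counted among the cell cycle genes, was at 0.8298 and -0.35 (528 and 346 counts in conventional cells). Gzmb was at -0.2564 and 0.81, from only 24 and 35 counts in conventional cells, and Izumo1r at -0.6809 and 0.61. Without the cells holding 4 or more B or myeloid markers the values in regulatory T cells were -1.22 for Isg15, -0.86 for Ifit1, 1.11 for Tubb5, -0.23 for Gzmb and -0.82 for Izumo1r.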

How the results depend on the processing

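The 3 tables of a treatment are draws from 1 pool of 3 mice, the mice behind single cells are unknown and 86 of 217 members rest on 1 Foxp3 count, so no value carries the spread between animals. At 97 to 120 cells per pool, genes under 30 counts were not tested. No paired analysis was possible because the replicate numbers mark tables of 1 pool that share barcodes, not separate samples with a partner, so no such pairs exist; the pool itself was the block.

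The share ratio of 0.8819 turned to 1.272 over T cells with Cd4, and lay between 0.802 and 0.9688 without 1 table; the shares over T cells with Cd4 turned back to 6.699% and 6.562% without the first agonist table and to 5.085% and 3.571% at 1000 counts per cell. Of the 1025 genes called against conventional cells, DESeq2 gave 296, no pool block 274 and conventional cells without Foxp3 only 670; leaving out 1 table gave 714 to 1308. Of 1171 genes past 1.5-fold between pools, a minimum of 10 counts gave 2855, 100 counts 268 and no filter 7244, which follows from the number of genes with few counts; leaving out 1 table gave 1111 to 1177.

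Some named genes changed side. Against conventional cells Il17a was at -1.715 with a Foxp3 count of 2 or more, -2.807 with at most 4000 genes, and -3.022 to 2.073 without 1 table; Ifng was at -2.29 with at most 4000 genes and -2.88 to 1.76 without 1 table; Il10 was at -0.1923 with cells lacking Foxp3 only. S100a8 was at -0.4336 and S100a9 at -0.07997 without Scrublet doublets, and at -0.09403 and -0.3934 without cells holding B or myeloid markers. Between pools Ccl5 was at -0.2806 with a Foxp3 count of 2 or more and at 1.735 with at most 4000 genes, and Ptpn11 at -0.01494 to 1.291 without 1 table. Jaml was at -0.99 and Cd200 at -0.35 without cells holding B or myeloid markers, and Pdcd1, not past 1.5-fold, at -0.3635 without the first agonist table and -0.3915 without the top cell of each pool. Where no cause is given it was not tested. The other genes named as called kept their direction under the settings in which they had enough counts to be tested. Against conventional cells, 1438 of 1540 values stayed on their side of the adjusted p threshold. Values without an adjusted p, such as Lrrc32 with DESeq2, are not among the 1540. Of the 1540, 53 values in 25 genes lost the call, 39 in 7 genes gained it and 10 in 5 genes changed direction with a call in at least 1 fit. Changes of direction without a call in either fit were not counted. Ifng changed so, to -0.1057 with DESeq2 and to -0.9107 against conventional cells defined by the lack of Foxp3 alone. Between pools, 56 of 963 values, in 28 genes, moved outside the gene's main interval, and 2 values in 2 genes past 1.5-fold changed side.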

Other observations

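Tissue markers were also counted among the members with Mki67. Of 19 members with Mki67 in the isotype pool, 12 also had Il1rl1 and 9 Areg, against 8 and 4 of 24 in the agonist pool; over all members the numbers were 50 and 39 of 120 and 42 and 28 of 97. Gzmb was found in 14 of those 19 and 12 of those 24 cells, and Gata3 in 15 of each. Pdcd1 went with Il1rl1 in 11 of 13 Pdcd1-positive members of the isotype pool and in 4 of 7 of the agonist pool. These pairs were chosen after the counts had been seen and are given with no test.

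Ribosomal reads made up a median of 6.806% and 6.641% of counts in regulatory T cells, against 10.72% and 9.978% in conventional CD4 T cells. Foxp3 was also detected in 28 of 1340 (2.09%) and 26 of 1157 (2.247%) T cells with Cd8a or Cd8b1, of which the rule leaves out those with Cd8b1, and in 48 cells with no count of a CD3 gene.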
